A study of Homo sapiens with 24 samples.

Results

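Nuclear RNA of A549 cells with and without knockdown of the kinase gene TAOK2 was compared in 4 libraries out of 24 in the series. The libraries were picked out by their labels. They are nuclear RNA from cells with TAOK2 siRNA in batches 1 and 2, and from cells with control siRNA in the same batches. The comparison, its genes and the gene lists were chosen with earlier results of these data known. A549 is a lung adenocarcinoma line, and every library came from cells labelled as wild type. Both siRNAs were pools given at 30 nM by reverse transfection, and the time between transfection and lysis is not stated. Polyadenylated RNA was sequenced, so nuclear transcripts without a tail are not in the tables. Cytoplasmic and total RNA of the same cells, with 2 libraries per siRNA each, and whole-cell RNA of a separate siRNA experiment, with 3 per siRNA in batches A, B and C and titles that carry the word mock, serve below to show where nuclear RNA differs. The labels do not say whether the 2 batches were separate cultures, so p-values measure the spread between these libraries, which may be technical. The gene fit pools that spread over all 12 fractionation libraries and treats fractions of the same cells as independent.

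TAOK2 is a serine/threonine kinase that feeds into stress-activated MAP kinase signalling and acts on microtubules. The title of the series places it in nuclear speckles, bodies that store and modify splicing factors. Nuclear polyadenylated RNA holds transcripts still being made or processed, those held back because introns remain in them, and messages on their way out. A change there can therefore be one of synthesis, of processing, of export or of nuclear decay, and steady-state levels do not separate these. Levels are given in TPM, transcripts per 1000000, a scale on which every library has one fixed total, so that more of one class leaves less for the rest. TPM keep no read total, so the depth of each library is unknown.

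The fraction was judged by the RNAs it held. Mitochondrially encoded RNAs made up 40.9% and 36.5% of TPM in nuclear libraries with TAOK2 siRNA and 42.5% and 38.0% in those with control siRNA, so the nuclear fraction held much organelle RNA. The share was 13.9% and 10.8% in control cytoplasm and 6.63% and 4.34% in control total RNA, so both fractions stood above total RNA. Cytosolic ribosomal protein messages, which are mostly cytoplasmic, held 4.48% and 5.06% in knockdown nuclei against 3.94% and 4.29% in control nuclei. In control cytoplasm they held 19.9% and 20.6%, and in control total RNA 18.9% and 21.2%. No matched transcript of a nuclear-retained noncoding RNA was in the table, so that check of the fraction was not made. The epithelial markers differed in direction. KRT18 stood at 2049 and 2057 TPM in knockdown nuclei and 1092 and 961 TPM in control nuclei, and KRT8 was likewise higher (2348 and 1909 against 1195 and 938 TPM). KRT7 was at 1163 and 1015 TPM in knockdown nuclei against 1354 and 1070 TPM in control nuclei, and EPCAM at 25.7 and 32.4 against 39.0 and 47.8 TPM. Of 16 leukocyte markers, CD3D, CD3E, MS4A1 and FCGR3A were listed at 0 in all 4 libraries, and PTPRC stayed under 1 TPM. CD68 was the highest, at 24.3 and 17.2 TPM in knockdown nuclei and 19.6 and 13.4 TPM in control nuclei. CD14 was at 7.4 and 4.7 TPM against 5.2 and 4.6 TPM. LYZ, CD4, ITGAM, ITGAX and NKG7 were also above 1 TPM in all 4 libraries. The summed level of leukocyte markers was 59.4 and 44.6 TPM with TAOK2 siRNA and 46.1 and 39.9 TPM with control siRNA.

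TAOK2 itself (ENSG00000149930, GRCh38 chromosome 16, 29973641 to 29992261, forward strand) was at 9.68 and 6.24 TPM in knockdown nuclei and at 15.6 and 9.31 TPM in control nuclei. Within each batch the knockdown library was lower, but batch 1 after knockdown lay above batch 2 of the control, so the groups overlap. The log2 change was -0.57 ± 0.20, with 2 nuclear libraries per group and an SE pooled over all 12 fractionation libraries. It did not pass the test across all genes (limma, adjusted p = 0.121). In cytoplasmic RNA TAOK2 fell by 1.34 on the log2 scale (adjusted p = 0.013 by limma), to 2.41 and 0.728 TPM with TAOK2 siRNA against 7.63 and 3.37 TPM with control siRNA. In total RNA its log2 change was -0.89 and did not pass (adjusted p = 0.0522 by limma). In whole cells of the separate experiment it was -1.75 (adjusted p = 2.3e-05 by limma). The difference between the nuclear and the cytoplasmic change was 0.77 ± 0.28 and did not pass (adjusted p = 0.836 by limma). The retained-intron transcript TAOK2-206 held 46.4% and 52.4% of the gene's nuclear TPM after knockdown, against 34.2% and 47.9% in controls. The coding transcript TAOK2-201 held 26.6% and 23.9% against 34.1% and 30.4%. Of the other members of the family, TAOK1 had a log2 change of 0.09 and an adjusted p of 0.836 in the same limma fit, and TAOK3 had 0.09 and 0.813.

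Of 13751 genes tested in nuclear RNA, 811 changed with TAOK2 siRNA (5.9%; limma with batch as a block, adjusted p under 0.05), 381 higher (2.77%) and 430 lower (3.13%). At least 2-fold changes were seen in 54 of those that rose and 78 of those that fell. All 811 moved the same way in both batches, as did 10860 of the genes tested. The 10860 were not split by direction, so counts below of list members higher or lower in both batches have no baseline over all genes. The number rests on pairing the libraries by batch and on having all 4 of them. Without the block 2 genes passed (0.0145%), LUM and ACAT2 (adjusted p = 0.0166 by limma for both). With a library left out, 13 genes passed without batch 1 of the knockdown, 20 without its batch 2, 22 without batch 1 of the control and 30 without its batch 2. In those fits the lone nuclear library of a group is assumed to vary like the other groups. A set of 10 genes, all higher, was called in all 4 of these fits: LUM, ACAT2, IFI44, EMP1, FGFBP1, STC1, GPRC5A, KRT18, TUBA1B and S100A4. TUBA1B and S100A4 are outside the rule for named genes and were chosen after their values were seen.

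**Figure D1:**
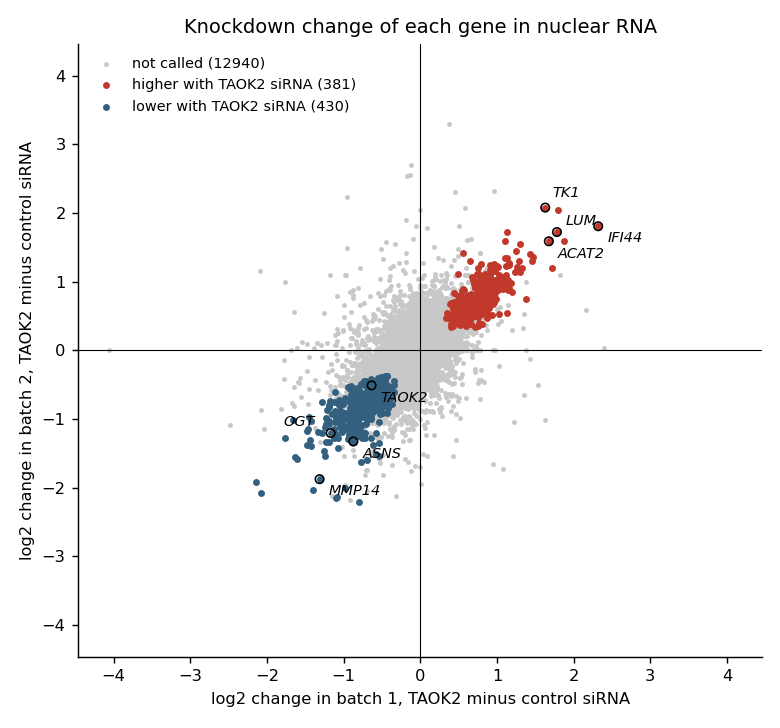
Each point is 1 of 13751 genes in nuclear RNA, with the log2 change (TAOK2 minus control siRNA, log2 of TPM + 1) in batch 1 on the x axis and in batch 2 on the y axis. Red points are the 381 genes called higher and blue points the 430 called lower by limma; circled points are named, and TAOK2 is circled although it was not called.

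The split between rises and falls depends on what the TPM are measured against. As deposited, 47% of the calls were higher with TAOK2 siRNA. With mitochondrial genes left out and TPM rescaled, 1270 genes passed (8.82%), 430 higher (2.99%) and 840 lower (5.83%), so 33.9% of the calls were higher, and 807 of the 811 genes remained among them. With each library centred on its median gene, 933 passed (6.78%), 575 higher (4.18%) and 358 lower (2.6%), so 61.6% were higher, and 699 of the 811 remained. The median change over all genes was -0.05 as deposited, -0.10 without mitochondrial genes and 0.02 when centred.

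LUM (ENSG00000139329, GRCh38 chromosome 12, 91102629 to 91111831, reverse strand) encodes lumican, a small proteoglycan that binds collagen fibrils. It was at 23.9 and 24.96 TPM in knockdown nuclei and at 6.25 and 6.87 TPM in control nuclei. The libraries of each siRNA lay close together and the groups were far apart. The log2 change was 1.75 ± 0.12 (adjusted p = 0.0015 by limma), the smallest adjusted p in nuclear RNA among the named genes. LUM also rose in cytoplasmic RNA (1.27, adjusted p = 0.00261) and total RNA (1.29, adjusted p = 0.00375), and it was under the filter in whole cells. Its coding transcript LUM-201 made up 48.0% and 43.7% of the gene in knockdown nuclei against 58.6% and 48.1% in control nuclei, and the rest was in 2 processed transcripts.

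ACAT2 (ENSG00000120437, chromosome 6, 159760328 to 159779055, forward strand) encodes a cytosolic acetyl-CoA acetyltransferase at the entry to cholesterol synthesis. It stood at 27.3 and 26.6 TPM in knockdown nuclei and at 7.88 and 8.18 TPM in control nuclei (1.63 ± 0.13, adjusted p = 0.00198 by limma). As for LUM, the replicates of each siRNA were nearly equal. In cytoplasmic RNA ACAT2 was at 24.9 and 28.9 TPM with TAOK2 siRNA and at 11.3 and 10.6 TPM with control siRNA, so it also rose there. In whole cells of the other experiment its change was -0.17 and did not pass (adjusted p = 0.217 by limma).

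TK1 (ENSG00000167900, chromosome 17, 78174075 to 78187233, reverse strand), the cytosolic thymidine kinase of S phase cells, was at 32.3 and 21.7 TPM in knockdown nuclei and at 9.77 and 4.37 TPM in control nuclei. Batch 1 was higher than batch 2 under both siRNAs, and both knockdown libraries lay above both control libraries. The log2 change was 1.85 ± 0.24 (adjusted p = 0.00691 by limma). TK1 lost its call when any of the 4 nuclear libraries was left out (adjusted p up to 0.0925).

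OGT (ENSG00000147162, chromosome X, 71533083 to 71575897, forward strand) encodes the enzyme that attaches O-linked N-acetylglucosamine to nuclear and cytosolic proteins, and its own message is known to keep an intron in the nucleus. It was at 146 and 148 TPM in knockdown nuclei and at 330 and 342 TPM in control nuclei (-1.19 ± 0.16, adjusted p = 0.00762 by limma). The 2 libraries of each siRNA differed little and the groups were far apart. OGT was enriched in the nuclear libraries, since it stood at 18.6 and 19.1 TPM in control cytoplasm and at 74.4 and 71.6 TPM in control total RNA. TPM are shares within each library, so where most of its molecules lay is not known. OGT did not pass in cytoplasmic (-0.70, adjusted p = 0.051) or total RNA (-0.50, adjusted p = 0.14). Without any 1 nuclear library OGT was no longer called (adjusted p up to 0.0889).

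The 3 most abundant OGT transcripts, 1 coding and 2 noncoding, were all lower after knockdown. The coding transcript OGT-202 was at 92.5 and 87.6 TPM in knockdown nuclei and at 152 and 156 TPM in control nuclei. The retained-intron transcript OGT-210 was at 42.6 and 41.9 TPM against 120 and 113 TPM in controls. A processed transcript, OGT-205, was at 0.0182 and 6.78 TPM with TAOK2 siRNA, against 46.9 and 55.4 TPM with control siRNA. As a share of the gene, OGT-202 held 63.4% and 59.2% in knockdown nuclei and 46.1% and 45.6% in control nuclei. OGT-205 held 0.0125% and 4.58% against 14.2% and 16.2%. None of these shares passed the limma test across transcripts (adjusted p = 0.799 for OGT-202, 0.948 for OGT-210 and 0.764 for OGT-205). These transcripts overlap, and their TPM are estimates that divide shared reads.

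**Figure D2:**
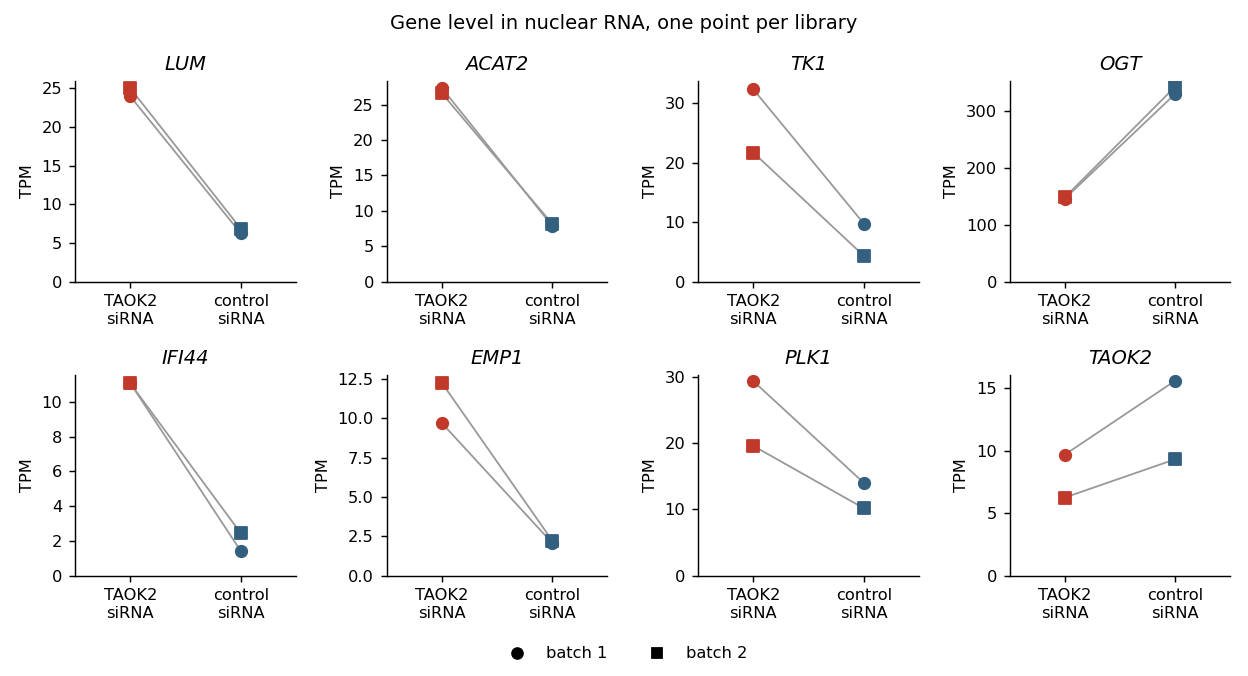
Nuclear TPM of 8 genes (y axis, from 0) in TAOK2 siRNA (left, red) and control siRNA (right, blue) libraries, with batch 1 as circles, batch 2 as squares and a line joining each batch. LUM, ACAT2, TK1, IFI44, EMP1 and PLK1 lie higher with TAOK2 siRNA in both batches, OGT and TAOK2 lower, and only in TAOK2 do the groups overlap.

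The largest rise among genes averaging at least 5 TPM was in IFI44, an interferon-induced gene, at 11.1 and 11.1 TPM in knockdown nuclei against 1.42 and 2.45 TPM in control nuclei (2.06 ± 0.19, adjusted p = 0.00295 by limma). EMP1, an epithelial membrane protein, was at 9.70 and 12.3 TPM against 2.08 and 2.23 TPM (1.92 ± 0.15). FGFBP1, a secreted carrier of fibroblast growth factors, was at 16.1 and 19.2 TPM against 3.68 and 5.74 TPM (1.73 ± 0.16). All 3 rose in cytoplasmic and total RNA as well. The other large rises were in the antiviral oligoadenylate synthetase OAS1 (1.46), the pyruvate carboxylase PC (1.43), the ribonucleotide reductase subunit RRM2 (1.42), the glycoprotein hormone STC1 (1.41), sciellin SCEL (1.41) and the receptor GPRC5A (1.37). IGFBP6, which binds insulin-like growth factors (1.35), AGR3, a protein disulfide isomerase relative (1.35), and the chemokine CXCL5 (1.30) completed the 15 largest rises, to which LUM, ACAT2 and TK1 also belong. PC showed the widest error of these (SE 0.27), at 10.1 and 7.13 TPM against 4.04 and 1.47 TPM.

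Many of the largest falls were in pseudogenes or genes with close copies. GUCY2EP, a pseudogene, was at 2.40 and 3.97 TPM in knockdown nuclei against 13.3 and 20.0 TPM in control nuclei (-2.08 ± 0.32, adjusted p = 0.0119 by limma). MAP1LC3B2, a near copy of the autophagy gene MAP1LC3B, was at 0.914 and 2.45 TPM against 7.48 and 12.1 TPM (-2.04 ± 0.28). GOLGA8M (-1.72), PABPC1L (-1.38) and the pseudogenes RPSAP14 (-1.39), BANF1P2 (-1.33), RPL23P2 (-1.28) and MAGOH2P (-1.25) also have relatives with similar sequence, so their reads could be split among copies and their levels are uncertain. Among genes of defined function, MMP14, a membrane-anchored matrix metalloprotease, was at 6.86 and 3.98 TPM against 18.6 and 17.3 TPM (-1.59 ± 0.22, adjusted p = 0.00832). The others were TMEM178A (-1.60), BEX2 (-1.59), ANKRD29 (-1.40), the proline metabolism gene PRODH2 (-1.31), the pseudogene CCDC162P (-1.27) and the gluconokinase IDNK (-1.24). In cytoplasmic or total RNA, where 2.94% and 2.47% of all genes were called, BEX2, MMP14 and BANF1P2 were the only ones of these 15 that passed.

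Genes of mitosis rose together. Of 47 tested members of the G2/M and mitosis list, 31 were called higher and 0 lower, against 2.77% called higher over all genes. All 47 were higher in both batches, and their median log2 change was 0.72, beside -0.05 over all genes. In bulk RNA, more dividing cells and more of these RNAs per cell cannot be told apart. PBK, a mitotic kinase, was at 44.1 and 64.8 TPM in knockdown nuclei against 19.2 and 26.1 TPM in control nuclei (1.22, adjusted p = 0.0065 by limma). The mitotic kinases PLK1 (0.95) and AURKA (0.73) and PRC1, which bundles spindle microtubules (0.87), had the next smallest adjusted p-values (0.00867 each). Other members that passed include the proliferation marker MKI67 (0.97, adjusted p = 0.0162), the mitotic kinase CDK1 (0.84, 0.0127) and its partner cyclin CCNB1 (0.80, 0.0147).

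Genes of DNA replication and S phase showed the same direction with fewer calls. Of 48 tested, 11 rose and 0 fell, against 2.77% called higher over all genes, and 44 were higher in both batches (median log2 change 0.50). TK1 and RRM2, both of which make DNA precursors, had the largest changes. RRM2 was at 24.99 and 34.01 TPM in knockdown nuclei and at 9.61 and 10.9 TPM in control nuclei (adjusted p = 0.00342 by limma). FEN1, the flap endonuclease of lagging-strand synthesis, was at 28.0 and 30.2 TPM against 13.4 and 12.4 TPM (1.11 ± 0.12, adjusted p = 0.00356). CDC6, which loads the replicative helicase, was at 23.8 and 36.4 TPM against 12.2 and 14.7 TPM (1.08 ± 0.14, adjusted p = 0.00724). The helicase subunits MCM2 (0.84) and MCM5 (0.98) rose, and cyclin CCNE1 was level at 10.2 and 10.3 TPM against 10.1 and 9.98 TPM.

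The rise of cell division genes was not confined to the nucleus, and it had the opposite sign in the separate whole-cell experiment. Of the G2/M list, 18 rose and 0 fell in cytoplasmic RNA, where 1.49% of all genes were called higher and 1.45% lower. In total RNA 27 rose and 0 fell, where 1.66% were called higher and 0.807% lower. In whole cells 0 rose and 23 fell, where 7.78% were called higher and 14.4% lower, and the list's median was -0.30. For S phase genes, 1 rose and 22 fell in whole cells. AURKA, for example, changed by 0.73 in nuclear RNA and by -0.58 in whole cells, and passed in each table (adjusted p = 0.00867 and 0.00572 by limma). The 2 experiments were normalized separately and in different batches, so the difference between them was not tested. Without the batch block 0 members of the G2/M list passed, and with a nuclear library left out 0 or 1 did. For the S phase list these counts were also 0, and 0 or 1.

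**Figure D3:**
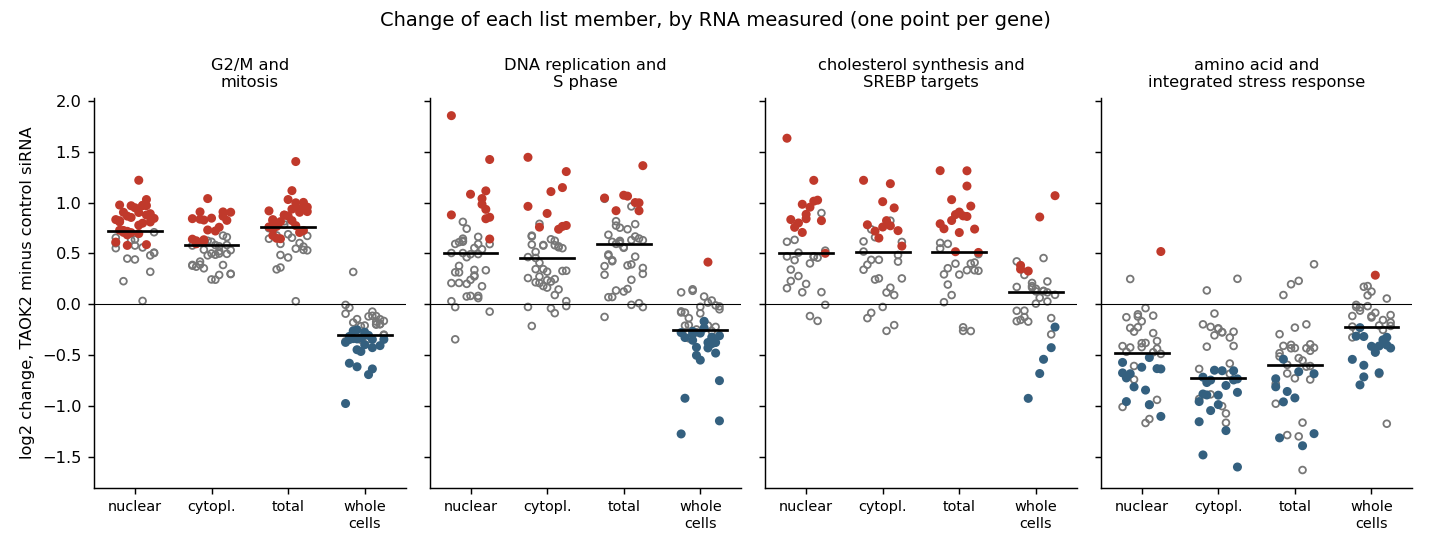
Log2 change with TAOK2 siRNA (y axis) of each tested member of 4 gene lists, in nuclear, cytoplasmic and total RNA of the fractionation experiment and in whole cells of the other experiment. Red and blue points passed the limma test (higher and lower), open points did not, and bars are medians: for G2/M and mitosis 0.72 in nuclear RNA and -0.30 in whole cells.

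The upstream sequences of 4 such genes are shown because their genes rose in nuclear RNA and they hold matches to sites of interest: promoters of mitotic genes are known to carry CCAAT boxes and the cell cycle homology region, which is bound by a complex that represses them in resting cells. Each is the 250 bases before the RefSeq gene start in GRCh38.p14, 5′ to 3′ on the gene's strand. Capitals mark matches on either strand to CCAAT or TTTGAA. PLK1 lies at chr16:23678639-23678888 (forward), PRC1 at chr15:90994536-90994785 (reverse), RRM2 at chr2:10122489-10122738 (forward) and FDPS, a cholesterol synthesis gene described next, at chr1:155308616-155308865 (forward).
PLK1: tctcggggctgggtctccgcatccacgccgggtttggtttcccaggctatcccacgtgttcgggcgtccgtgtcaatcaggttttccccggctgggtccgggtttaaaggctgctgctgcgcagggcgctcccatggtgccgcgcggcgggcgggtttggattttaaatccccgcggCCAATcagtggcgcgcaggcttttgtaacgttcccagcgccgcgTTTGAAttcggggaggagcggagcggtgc
PRC1: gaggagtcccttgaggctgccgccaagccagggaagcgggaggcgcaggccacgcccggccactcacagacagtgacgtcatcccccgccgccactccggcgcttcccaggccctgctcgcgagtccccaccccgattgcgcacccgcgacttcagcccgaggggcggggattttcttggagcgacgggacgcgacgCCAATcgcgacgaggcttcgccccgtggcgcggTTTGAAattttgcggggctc
RRM2: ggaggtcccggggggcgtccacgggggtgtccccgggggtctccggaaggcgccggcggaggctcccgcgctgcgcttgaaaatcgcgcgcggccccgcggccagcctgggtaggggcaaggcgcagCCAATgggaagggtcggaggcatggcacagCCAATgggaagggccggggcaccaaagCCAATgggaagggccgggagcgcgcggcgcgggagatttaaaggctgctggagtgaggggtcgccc
FDPS: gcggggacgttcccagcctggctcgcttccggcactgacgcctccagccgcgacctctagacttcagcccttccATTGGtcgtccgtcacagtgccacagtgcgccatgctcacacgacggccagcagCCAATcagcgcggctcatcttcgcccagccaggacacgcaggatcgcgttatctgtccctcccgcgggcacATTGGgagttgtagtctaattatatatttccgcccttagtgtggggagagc

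PLK1 and PRC1 each hold 1 CCAAT and 1 TTTGAA, at -73 and -29 from the start in PLK1 and at -53 and -20 in PRC1. RRM2 and FDPS hold 3 CCAAT matches each and no TTTGAA. The same window of TK1 and FEN1, which rose as well, holds no match to any motif searched. Of 27305 promoters in the table, 33.0% hold CCAAT and 13.6% TTTGAA. Promoters were matched by symbol for 39 of the 47 measured G2/M genes: 30 hold CCAAT (76.9%) and 20 hold TTTGAA (51.3%). Of the 41 S phase promoters matched, 23 hold CCAAT (56.1%) and 2 TTTGAA (4.88%). For E2F, which drives S phase genes, the words TTTCCCGC, TTTGGCGC, TTTCGCGC and TTTGCCGC were searched, and 14 of these 41 (34.1%) hold one, against 2.79% of all. Of the 9 matched S phase promoters whose genes rose in nuclear RNA, 1 does. None of the matches shown overlaps another. For the cholesterol list 27 promoters were matched: 17 hold CCAAT (63.0%) and 1 (3.7%) holds TCACNCCAC, a sterol response element, against 0.875% of all.

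Cholesterol synthesis genes rose. Of 35 tested members of the list of cholesterol synthesis genes and targets of SREBP, the sterol-sensing transcription factor, 14 were called higher and 0 lower, where 2.77% and 3.13% of all genes were, and 32 were higher in both batches (median 0.51). ACAT2 led. FDPS, which makes farnesyl diphosphate, was at 207 and 213 TPM in knockdown nuclei against 112 and 121 TPM in control nuclei (0.84 ± 0.10, adjusted p = 0.00445 by limma). EBP, a sterol isomerase, was at 55.7 and 54.3 TPM against 29.1 and 29.6 TPM (0.88 ± 0.11, adjusted p = 0.00507). The squalene epoxidase SQLE was at 85.2 and 106 TPM against 39.95 and 56.7 TPM (0.98 ± 0.12, adjusted p = 0.00588). HMGCS1, which makes HMG-CoA, rose as well (1.01, adjusted p = 0.0297). In cytoplasmic and total RNA 12 and 16 members rose and 0 fell, where 1.49% and 1.66% of all genes were called higher. In whole cells 5 rose and 5 fell, where 7.78% of all genes were called higher and 14.4% lower. Without the batch block 1 member passed, ACAT2, and with a nuclear library left out 1 to 3 did.

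Glycolytic genes rose in nuclear RNA. Of 36 tested members of the hypoxia and glycolysis list, 14 rose and 1, the angiogenic factor VEGFA (-0.84, adjusted p = 0.0242 by limma), fell, where 2.77% of all genes were called higher and 3.13% lower. The rises include PGAM1 (0.74, adjusted p = 0.00427), GAPDH (0.77, 0.00477) and TPI1 (0.57, 0.0119), 3 glycolytic enzymes, and STC1. GAPDH was at 3241 and 3575 TPM in knockdown nuclei and at 1878 and 2122 TPM in control nuclei. Without the batch block 0 members of the list passed in nuclear RNA. In cytoplasmic RNA 2 members passed and in total RNA 2, all higher, where 1.49% and 1.66% of all genes were called higher. The difference between the fractions passed for 0 genes of the table. Of 79 ribosomal protein genes, 71 were higher in both batches (median 0.23), but only 1 passed, RPS29 (0.57, adjusted p = 0.0385), a share under the 2.77% of all genes. Of 75 nuclear-encoded respiratory chain genes, 7 rose, 0 fell and 55 were higher in both batches. The part of fraction purity in these rises was not tested.

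Amino acid and stress response genes fell. Of 42 tested members of the list of genes controlled by ATF4 and the integrated stress response, 13 fell (3.13% of all genes did) and 1 rose, and 37 were lower in both batches (median -0.48). DDIT3, a stress-induced transcription factor, was at 25.2 and 29.01 TPM in knockdown nuclei and at 46.9 and 63.2 TPM in control nuclei (-0.98 ± 0.13, adjusted p = 0.00788 by limma). ASNS, the asparagine synthetase, was at 207 and 185 TPM against 380 and 465 TPM (-1.10 ± 0.16, adjusted p = 0.00986). The methionyl-tRNA synthetase MARS1 (-0.81, adjusted p = 0.0151) and the partner factor CEBPG (-0.63, adjusted p = 0.019) fell too. CTH, which makes cysteine, was the member that rose (0.52, adjusted p = 0.0386). ATF4 itself did not pass (-0.41, adjusted p = 0.295). In cytoplasmic RNA 20 members fell, in total RNA 11 and in whole cells 15, where 1.45%, 0.807% and 14.4% of all genes did. With libraries centred on their median gene 6 fell in nuclear RNA, and without the block or with a nuclear library left out 0 passed.

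Interferon-stimulated genes rose in part, with 8 of 36 called higher, against 2.77% of all genes, and 0 lower. Besides IFI44 and OAS1, OAS3 was at 26.1 and 21.6 TPM in knockdown nuclei against 11.3 and 10.6 TPM in control nuclei (1.05 ± 0.13, adjusted p = 0.00577 by limma), and IFIT1 was at 6.55 and 6.08 TPM against 1.89 and 3.19 TPM (1.07 ± 0.22, adjusted p = 0.0279). In cytoplasmic RNA 3 members rose and 1 fell, where 1.49% of all genes were called higher and 1.45% lower. In total RNA 7 rose, where 1.66% of all genes did. In whole cells 7 rose and 1 fell, where 7.78% of all genes were called higher and 14.4% lower. No batch block left 0 of them, and leaving out a nuclear library left 1 or 2.

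Among messages that keep introns in the nucleus, those that passed were lower. Of 37 tested genes of the detained-intron list, 10 fell and 0 rose, against 3.13% of all genes called lower, and 31 were lower in both batches (median -0.37). OGT had the smallest adjusted p. ARGLU1, a coactivator that takes part in splicing, was at 75.8 and 94.0 TPM in knockdown nuclei and at 130 and 153 TPM in control nuclei (-0.73 ± 0.12, adjusted p = 0.0147 by limma). The splicing coactivator RBM39 was at 496 and 554 TPM against 720 and 842 TPM (-0.57 ± 0.10, adjusted p = 0.0208). MAT2A, which makes S-adenosylmethionine and splices its last intron according to methionine supply, was at 468 and 583 TPM against 702 and 865 TPM (-0.58 ± 0.11, adjusted p = 0.0236). The cyclins of splicing, CCNL1 (-0.68) and CCNL2 (-0.76), fell as well. None of the 37 passed in cytoplasmic or total RNA with limma, where 2.94% and 2.47% of all genes were called. That is near those shares, and nothing is read from it. When libraries were centred on their median gene 5 of the 10 calls were left, and without the block or any 1 nuclear library 0 were.

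Speckle scaffold and SR protein genes overlap that list. Of 37 tested, 7 fell, against 3.13% of all genes, and 0 rose. Those with the smallest adjusted p were SRRM3, a regulator of microexons (-0.86, adjusted p = 0.0208 by limma), the SR protein gene SRSF12 (-0.82, 0.0293), LUC7L3, which relates to the U1 particle (-0.69, 0.0325), and PNISR (-0.58, 0.0355). With libraries centred on their median gene, 4 fell, and without the block 0 did. LUC7L3 and PNISR lost their calls with median centring and with no filter, and SRSF12 with a pseudocount of 0.1 and with no filter. SRRM3 was low, at 1.06 and 0.690 TPM in knockdown nuclei against 2.52 and 2.26 TPM in control nuclei. The speckle scaffolds SON (140 and 180 TPM against 144 and 194 TPM; adjusted p = 0.931) and SRRM2 (340 and 214 TPM against 360 and 238 TPM; adjusted p = 0.82) did not pass. SR protein kinases and phosphatases had 0 of 21 called by limma (2 at an unadjusted p under 0.05), and CLK1 was at 54.9 and 70.4 TPM against 61.4 and 68.6 TPM.

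The lists of RNA-processing machinery gave few calls, where 2.77% of all genes were called higher and 3.13% lower, and nothing is read from counts this small. In the core spliceosome list 2 of 56 fell, PRPF3 of the U4/U6 particle (-0.53, adjusted p = 0.0211 by limma) and BUD31 (-0.40, 0.0442), and 0 rose. Among hnRNP genes HNRNPF rose (0.39, 0.0358) and HNRNPH1 fell (-0.45, 0.044), of 31. Of 34 export and exon junction genes, THOC3 of the THO complex rose (0.54, 0.0395), and PCID2 (-0.49, 0.0346), the junction factor CASC3 (-0.59, 0.0373) and the cap-binding NCBP3 (-0.59, 0.0377) fell. CASC3 was also the 1 member of 19 called among nonsense-mediated decay factors. CPSF6, a cleavage factor subunit, fell (-0.61, 0.043), as 1 of 25 in its list. HNRNPH1 and CPSF6 lost their calls with a pseudocount of 0.1, with no filter and with median centring. BUD31 lost its call with no filter and with median centring, and THOC3, CASC3 and NCBP3 with no filter. Nuclear RNA decay factors had 0 of 24 called (2 at an unadjusted p under 0.05).

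The other lists had fewer calls or calls in both directions, where 2.77% of all genes were called higher and 3.13% lower. NRF2 targets had 5 of 38 higher, among them the aldo-keto reductases AKR1B1 (0.93, adjusted p = 0.00332 by limma) and AKR1B10 (0.83, 0.00986) and the glutathione peroxidase GPX2 (0.79, 0.00608), and 1 lower, the heme oxygenase HMOX1 (-0.61, 0.0211). Of 25 NF-kB genes and chemokines 4 rose, with CXCL5, CXCL1 (0.74, 0.0127) and CXCL8 (1.02, 0.0216), and 2 fell, with TRAF1 (-0.99, 0.0117). Of 33 matrix genes LUM and the laminin chain LAMB3 (0.91, 0.0165) rose, and 2 fell, MMP14 among them. YAP and TEAD targets had 4 of 27 higher, CCN2 (0.57, 0.0227) and NT5E (0.66, 0.0162) among them. Of 20 genes of epithelial and mesenchymal state, KRT18 (1.00, 0.00295) and KRT8 (1.00, 0.00918) rose and EPCAM fell (-0.56, 0.0375).

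Endoplasmic reticulum and secreted protein genes had 6 of 36 higher, CD63 (0.54, adjusted p = 0.0127 by limma) and CALR (0.53, 0.0247) among them, and 1 lower. The unfolded protein response list had 2 of 27 higher, PDIA6 (0.57, 0.0145) and CALR. Immediate early genes had 3 of 35 higher, CCN2, DUSP5 (0.53, 0.0355) and NR4A2 (0.57, 0.0373). Heat shock genes had 1 of 25 higher, HSPE1 (0.43, 0.0223), and of 19 histone genes 1 was higher, H2AZ1 (0.48, 0.034), and 1 lower. Over all genes 2.77% were called higher and 3.13% lower, and nothing is read from counts this small. KRAB zinc finger genes had 3 of 73 lower, ZNF333 (-0.85, 0.0119), ZNF140 (-0.55, 0.0372) and ZNF573 (-1.08, 0.0481), a share near the 3.13% of all genes. Lower in both batches were 58 of the 73, without a share over all genes to set beside it, and nothing is read from either count. The leukocyte list had 1 of 5 higher, LYZ (1.03, 0.00897). At an unadjusted p under 0.05 stood 3199 of all 13751 genes. No member passed with limma among 33 p53 targets (5 at an unadjusted p under 0.05), 28 genes of the TAO kinase cascades (4), 13 mitochondrially encoded mRNAs (0) and 6 fibroblast and endothelial markers (2).

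**Figure D4:**
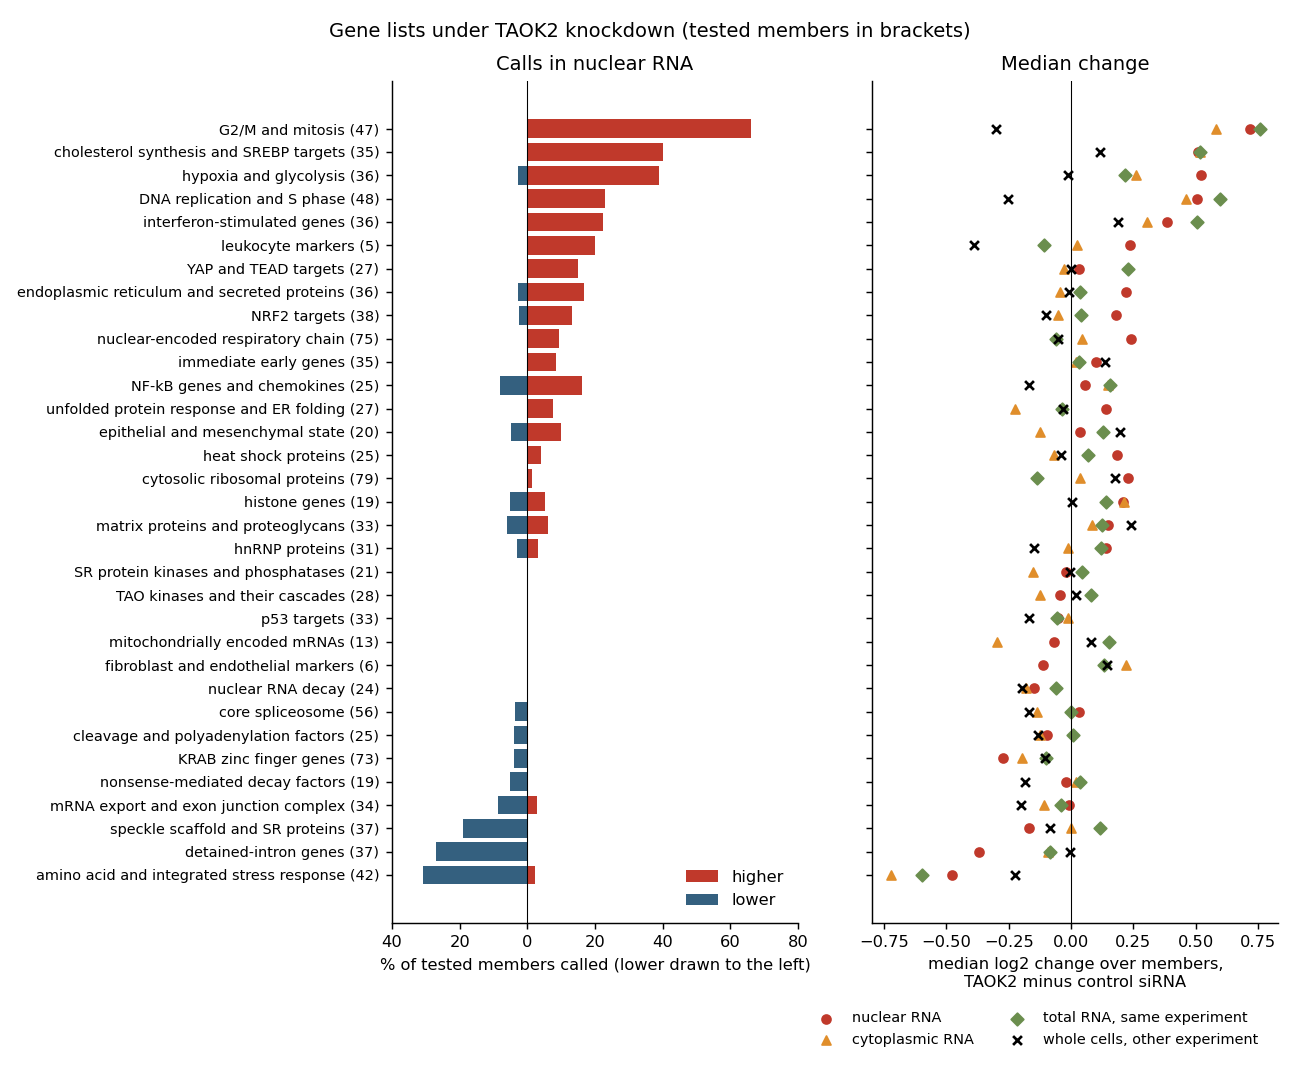
Left, the percentage of tested members of each gene list called higher (red, to the right) or lower (blue, to the left) in nuclear RNA with TAOK2 siRNA; right, the median log2 change of each list in nuclear, cytoplasmic, total and whole-cell RNA. G2/M and mitosis lies at the top with 31 of 47 members higher, and amino acid and integrated stress response at the bottom with 13 of 42 lower.

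The knockdown difference was then compared between nucleus and cytoplasm. No gene of 13751 had a nuclear change that differed from its cytoplasmic change at an adjusted p under 0.05 (limma; 787 at an unadjusted p under 0.05). Over all genes 404 passed in cytoplasmic RNA (2.94%) and 339 in total RNA (2.47%). Of the 381 genes higher in nuclear RNA, 376 had the same sign in cytoplasmic RNA and 151 were also called higher there. Of the 430 lower, 390 had the same sign and 86 were called lower. In total RNA 378 and 398 had the same sign. The fractions come from the same batches of cells and share the same estimate of spread per gene, so these counts are not independent replication. Over all genes, nuclear changes correlated with cytoplasmic changes at r = 0.527 and with those in total RNA at r = 0.549. As a description, the genes lower in nuclear RNA had a median log2 ratio of total to cytoplasmic RNA in control cells of 0.34 (quartiles 0.09 and 0.67), against 0.16 in the genes that rose and 0.16 (-0.03 and 0.41) in all genes, so the ranges overlap widely. Pseudogenes made up 14.9% of them (64), against 0.525% of the genes that rose and 7.37% of all tested.

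The separate whole-cell experiment called more genes, 2905 of 13106 (22.2%; limma without a block). Of the nuclear rises measured there, 217 of 354 had the same sign, 94 were called higher and 42 lower. Of the nuclear falls, 223 of 350 had the same sign, 65 were called lower and 12 higher. Of all genes tested in whole cells, 7.78% were called higher and 14.4% lower. The nuclear and whole-cell changes correlated at r = 0.178 over 12429 genes. Among the 10 largest whole-cell rises, STC1 (2.16 in whole cells), EMP1 (1.62), LAMB3 (1.46) and C1orf116 (1.56) also rose in nuclear RNA. Among the 10 largest whole-cell falls, CCDC43 (-2.04 in whole cells, -0.59 in nuclear RNA) and HMOX1 (-1.66, -0.61) were among those that also fell. RAB1B, a small GTPase of transport to the Golgi, fell most in whole cells (-2.29, adjusted p = 1.25e-08) and was at 33.1 and 22.6 TPM in knockdown nuclei against 42.1 and 27.0 TPM in control nuclei (-0.29, adjusted p = 0.295).

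Retained-intron transcripts held less of the nuclear RNA after knockdown. They made up 7.35% and 8.01% of TPM in knockdown nuclei and 8.86% and 9.75% in control nuclei. With mitochondrial genes left out, the shares were 12.4% and 12.6% against 15.4% and 15.7% (12.5% ± 0.137 and 15.6% ± 0.214, SD, n = 2 each), a difference of -3.03 percentage points. An exact two-sided permutation test of 2 against 2 libraries gives p = 0.333, the smallest it can give. In cytoplasmic RNA without mitochondrial genes the shares were 4.22% and 3.84% with TAOK2 siRNA and 4.56% and 4.02% with control siRNA. In total RNA they were 6.73% and 5.85% against 6.85% and 5.63%. Processed transcripts, noncoding versions of coding genes, held 7.94% and 8.86% against 9.71% and 11.1% in nuclear RNA, and pseudogenes 2.43% and 2.36% against 3.00% and 3.06%. Protein-coding transcripts held 71.1% and 70.2% against 65.7% and 64.2%. The part of fraction purity in these shares was not tested; the ribosomal protein share without mitochondrial genes was 7.58% and 7.97% against 6.85% and 6.91%.

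**Figure D5:**
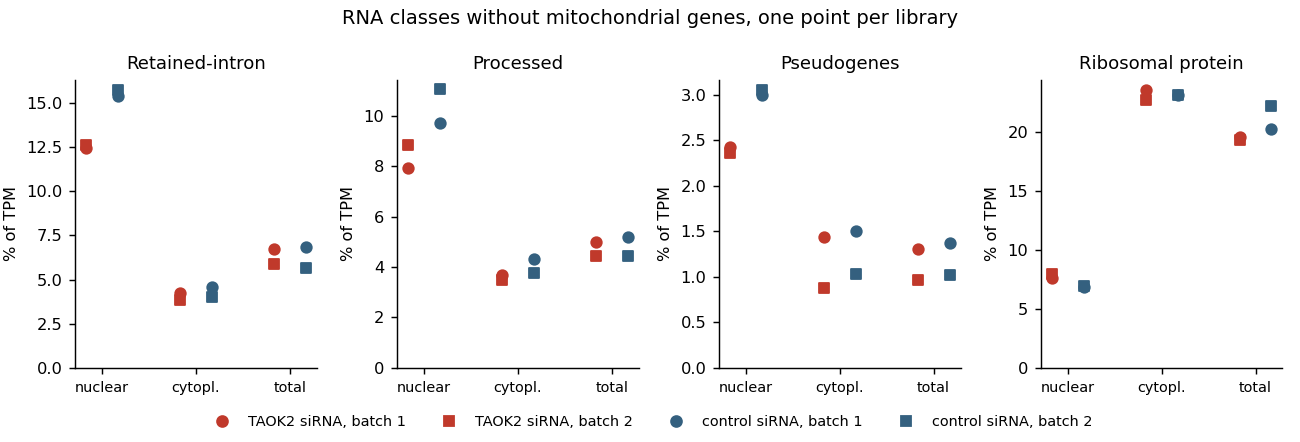
Share of TPM (y axis, percent, mitochondrial genes left out) held by 4 RNA classes in each fraction, one point per library, with TAOK2 siRNA in red to the left and control siRNA in blue to the right of each pair. In the nuclear fraction retained-intron transcripts lie at 12.4% and 12.6% with TAOK2 siRNA and at 15.4% and 15.7% with control siRNA.

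No single transcript's share of its gene passed the test. Of 33461 transcripts tested in nuclear RNA, 0 passed with limma on log2 odds (1906 at an unadjusted p under 0.05), and 0 passed without the batch block (857 unadjusted). When the retained-intron transcripts of each gene were summed, a measure added after the data had been seen, 0 of 3916 genes passed (227 at an unadjusted p under 0.05). The share was lower in both batches in 2391 of these genes (61.1%) and higher in both in 410 (10.5%), with a median log2 odds change of -0.27. In cytoplasmic RNA 1130 were lower and 1007 higher in both batches (median -0.05), and in total RNA 881 and 1200 (median 0.06). The nuclear minus cytoplasmic difference of this share passed in 0 genes (225 at an unadjusted p under 0.05). In the detained-intron list, 19 of 27 genes had a lower share in both batches and 3 a higher one. OGT kept 36.0% and 35.9% of its nuclear TPM in retained-intron transcripts after knockdown, against 39.2% and 37.8% in controls, so its level changed more than this share. For SRSF7, an SR protein gene, the share was 8.69% and 17.5% against 13.5% and 24.3%, lower within each batch but with groups that overlap.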

How the data were processed

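The deposited values are TPM per transcript, which the authors made with kallisto and GRCh38.p14 according to the submitters' processing notes, with no kallisto version named there. Per the labels' protocols, Trizol RNA of an integrity number over 6 was read at 150 bp. Every library sums to 1000000 TPM, so no counting interval can be given. Of 188753 transcripts, 169797 (89.96%) matched GENCODE 29 by identifier and were summed to 35579 genes. Genes averaging at least 1 TPM over the 12 fractionation libraries were tested on log2(TPM + 1), which understates changes of low genes, with limma 3.58.1 (R 4.3.3, statmod 1.5.0): group means plus batch, empirical Bayes with trend and robust settings, Benjamini-Hochberg adjustment over all genes at 0.05. Whole-cell libraries were fitted the same way, without batch. The SE beside a log2 change is the moderated one, pooled over the 12 libraries of the fit. Shares of transcripts holding 5% to 95% of genes of at least 5 TPM were tested as log2 odds with 0.5 TPM added. The fits were tested on simulated data with independent libraries, which cannot test the treatment of fractions of the same cells as independent.

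The labels give each fractionation library a batch, 1 or 2, and the comparison pairs by it. Deviations from the group means correlated at r = 0.837 across genes between knockdown and control nuclear libraries of the same batch; with 2 libraries per group these mirror each other, and genes are not independent replicates. Replicates correlated at 0.962 (TAOK2 siRNA) and 0.952 (control siRNA).

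Named genes are the 15 largest rises and 15 largest falls (called, 5 TPM or more on average in nuclear RNA, a proper gene name, one sign in both batches), LUM, ACAT2, OGT, TK1 and TAOK1 to TAOK3, up to 4 members of each of 34 lists by adjusted p, and the 10 largest whole-cell changes each way; further list members were added after their values were seen. The comparison, its genes and the lists were chosen with earlier results of these data known. RefSeq promoters were matched by symbol. Alternatives changed the block, the libraries, the pseudocount, the filter, the TPM total and the scaling. Compound-treated libraries were not used here, and some genes are not reported here.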

Additional observations from a re-analysis of the deposited data

Results flagged for a closer look

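Of 89 named genes called in nuclear RNA and measured in whole cells, 18 changed one way in both nuclear batches and the other way in all 3 whole-cell batches, and 8 of these were called in whole cells by limma. The difference was not tested, since the 2 tables were normalized separately. Opposite signs were not counted over all genes, so 18 of 89 has no baseline. Nuclear and whole-cell changes correlated at only r = 0.178 over 12429 genes. Of all genes tested in whole cells, 7.78% were called higher and 14.4% lower. Log2 changes are given in nuclear RNA and then in whole cells, each TAOK2 minus control siRNA.

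Among cell division genes they were PBK 1.22 against -0.31, FEN1 1.11 against -0.37, CDC6 1.08 against -0.55, PLK1 0.95 against -0.40, PRC1 0.87 against -0.25 and AURKA 0.73 against -0.58; all 6 were called in whole cells. The glycolytic enzyme and mitochondrial chaperone genes TPI1 0.57 against -0.17 and HSPE1 0.43 against -0.21 were called there as well. The cholesterol gene ACAT2 1.63 against -0.17, the export gene THOC3 0.54 against -0.14, the chaperone gene CALR 0.53 against -0.22 and the hnRNP gene HNRNPF 0.39 against -0.22 rose in nuclear RNA but did not pass in whole cells. Lower in nuclear RNA, and not passing in whole cells, were HNRNPH1 -0.45 against 0.21, NCBP3 -0.59 against 0.12, LUC7L3 -0.69 against 0.08, ARGLU1 -0.73 against 0.07, ZNF333 -0.85 against 0.06 and OGT -1.19 against 0.10.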

How the results depend on the processing

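Pairing by batch had the largest effect on the count of genes called in nuclear RNA, 811 with batch as a block. Without the replicate block 2 passed, with a block within each fraction 1572 (11.4%), with the 4 nuclear libraries alone 4066 and with mitochondrial genes left out 1270. Leaving out 1 nuclear library gave 13 to 30 calls. All 811 were among the 1572. Pseudocounts, filters on low values and median centring kept the total within 1.5 times, but falls numbered 241 with a pseudocount of 0.1 and rises 244 with no filter and 575 when centred. Of 105 named genes tried, 100 lost their call without the block, 88 to 93 with a library left out, 28 with no filter, 11 with a pseudocount of 0.1 and 7 when centred. No direction changed except that of TAOK3, never called, which ranged from -0.0727 without control replicate 1 to 0.261 without control replicate 2. The difference between nuclear and cytoplasmic changes, 0 calls, gave 1 with a block within each fraction (ENSG00000257411), 8 with no filter, and 0 to 1 with a library left out (ENSG00000285133 without control replicate 2). Transcript shares, also 0, gave 1 with a pseudocount of 0.1, a processed transcript of COMMD6. The block took whole-cell calls to 3660 (27.9%). Without mitochondrial genes the knockdown minus control shares of nuclear TPM were -3.03 points for retained-intron, -0.323 for nonsense-mediated decay, -1.99 for processed, 5.71 for protein-coding and -0.0679 for unmatched transcripts, and -0.632 for pseudogenes. The causes were not tested. With 2 libraries per group and no read counts, falls of low genes are the least certain.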
